A study of Danio rerio with 9 samples.

Results

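The data described here are the 3 arrays of zebrafish embryos (Danio rerio) at 30% epiboly, 50% epiboly and the shield stage, out of 9 arrays that cover early development from the 64-cell stage to tailbud. The 3 stages were taken by name from the array labels and run from the late blastula to the onset of gastrulation. Each stage had 1 array and no replicate. Every array carried the RNA of its stage in Cy5 (red) and, in Cy3 (green), a pool made of equal amounts of RNA from the 9 stages. The embryos were uninjected wild-type fish of an outbred stock kept at 28.5 °C, and 30 to 50 embryos of a single clutch were combined per stage, so individual embryos cannot be told apart. No agent or mutation was involved, and a whole embryo mixes blastoderm, enveloping layer and yolk-associated tissue.

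During epiboly the sheet of embryonic cells thins and spreads until it encloses the yolk cell. The percentage says how far the blastoderm margin has moved towards the vegetal pole. At 30% epiboly the embryo is a late blastula that transcribes its own genome while maternal transcripts are being cleared. At 50% epiboly the margin stands at the equator and the germ ring forms as cells of the margin begin to move inward. The shield is the dorsal thickening of that ring, the fish counterpart of the amphibian organizer, and its appearance marks the dorsal side of the gastrula. The comparison asked how transcript levels differed across these stages, and whether differences seen between 30% and 50% epiboly continued or reversed at shield.

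The measured value is the log2 ratio of stage signal over pool signal, normalized by loess within each array. A value of 0 means that a probe was as bright in the stage as in the pool relative to the other probes of the array, so higher and lower are relative and are not amounts per embryo. Of 16178 oligonucleotide IDs, 16101 were bright enough to be used. The median stage signal of the probe spots was 566 at 30% epiboly, 453 at 50% epiboly and 324.5 at shield, so the arrays became dimmer in that order. The stage signal exceeded the 95th percentile of blank spots for 8620, 9170 and 6531 IDs on the same 3 arrays. The image software flagged 3105 of 16340 probe spots at 30% epiboly, 1627 at 50% epiboly and 3007 at shield. Flags here and below are those of the stage channel, and flags of the pool channel were not used. No file or table used here gives the genes behind the oligonucleotide IDs, so nearly all results are given for groups of probes.

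At the first step, 104 probes were at least 2-fold higher and 130 at least 2-fold lower at 50% epiboly than at 30% epiboly. These 234 probes are 1.45% of those used, 0.646% higher and 0.807% lower. Differences of individual probes reached 3.86 upward and -4.61 downward on the log2 scale. The middle of the distribution was narrow, with a median absolute difference of 0.21. Near the 2-fold line, 75 probes lay within 0.1 above it on the log2 scale and 134 within 0.1 below it. The 104 higher probes had a median ratio of -1.02 at 30% epiboly, 0.22 at 50% epiboly and -0.10 at shield. They thus lay below the pool at 30% epiboly and close to it at the later 2 stages. The 130 lower probes had medians of 0.11, -1.001 and -0.50 in the same order. They lay near the pool at 30% epiboly and below it afterwards. In the authors' value table with each array's median subtracted, the split was 432 higher and 254 lower, so which direction was the more frequent depended on the scaling.

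At the second step, 25 probes were at least 2-fold higher and 27 at least 2-fold lower at shield than at 50% epiboly. Together these 52 probes were 0.323% of those used, 0.155% higher and 0.168% lower. The median absolute difference was 0.18, close to that of the first step, while the tails were shorter. The authors' value table as deposited gave 208 higher and 132 lower probes at this step. Between shield and 30% epiboly, a difference that does not use the 50% epiboly array, 96 probes were at least 2-fold higher and 62 at least 2-fold lower at shield. These 158 probes were 0.981% of those used, 0.596% higher and 0.385% lower. In the value table with medians subtracted they were 405 and 145. The whole interval held fewer 2-fold probes than its first step (158 against 234) under this setting, but not with loess within print blocks, where both held 150. With median centring the interval also held fewer (187 against 276), although its higher probes were 128 against 114 at the first step. These are differences between single arrays and carry no test.

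**Figure D1:**
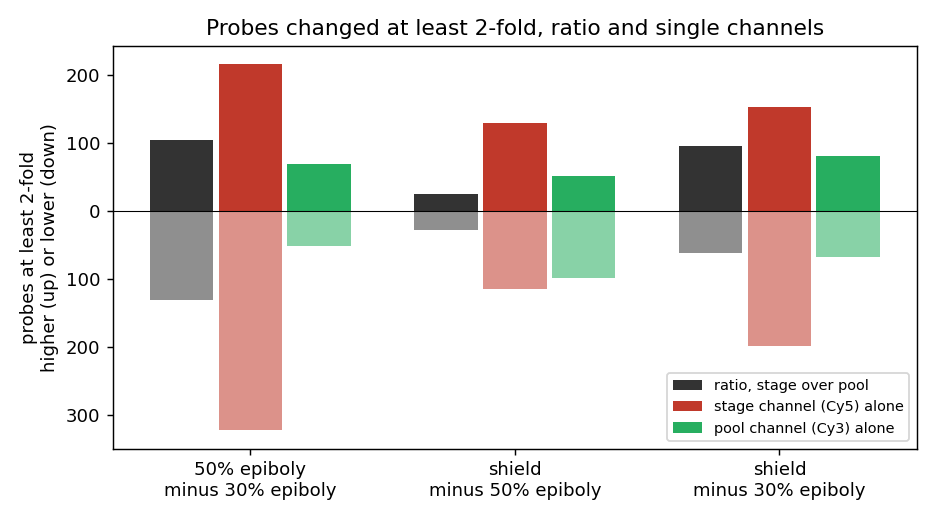
Number of probes at least 2-fold higher (dark bars, upward) or lower (pale bars, downward) in the later stage of each pair, for the ratio of stage over pool and for each dye channel alone. The pool channel, which held the same RNA on every array, gave 121, 150 and 149 probes for the 3 pairs, against 538, 244 and 351 in the stage channel.

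The dye channels were set beside these counts because the pool RNA was the same on all 3 arrays. Each channel was quantile normalized over the 3 arrays, unlike the ratio. At the first step 538 probes differed at least 2-fold in the stage channel (3.34% of those used) against 121 in the pool channel (0.752%). At the second step the numbers were 244 in the stage channel and 150 in the pool channel. From 30% epiboly to shield they were 351 in the stage channel and 149 in the pool channel. The excess of the stage channel over the pool channel was thus larger at the first step than at the second. For the 104 probes higher at the first step, the median difference of that step was 1.18 in the stage channel and -0.05 in the pool channel. For the 130 lower probes it was -1.25 in the stage channel and -0.07 in the pool channel. The medians of the first step thus differed mainly in the stage channel, although not for every probe, as the 7 with a 2-fold minimum at 50% epiboly differed in the pool channel. At the second step the 25 higher probes had a median difference of 0.60 in the stage channel and -0.62 in the pool channel, so pool signal contributed as much as stage signal. The 27 lower probes had -1.31 in the stage channel and 0.40 in the pool channel.

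Probes of the second step also differed from those of the first in brightness and in their flags. Stage signal exceeded the blank level on all 3 arrays for 58 of the 104 higher and 80 of the 130 lower probes of the first step. The same held for 3 of the 25 higher and 10 of the 27 lower probes of the second step, against 6440 of all 16101. Pool signal exceeded the blank level on all 3 arrays for 89 and 116 probes of the first step and for 7 and 17 of the second. The shares at the second step were 28.0% of the higher and 63.0% of the lower probes, against 70.6% of all probes. For stage signal they were 12.0% and 37.0%, against 40.0%. By both measures the 25 higher probes were dimmer than all probes, while the 27 lower probes were nearer to them. A spot flagged on at least 1 of the 3 arrays was found for 32.7% of the higher and 26.9% of the lower probes of the first step, close to the 30.6% of all probes. At the second step it was found for 72.0% of the higher and 88.9% of the lower probes. With flagged spots left out, 71 higher and 95 lower probes were found at the first step, and 7 and 3 at the second. Of the 5367 brightest probes 145 differed at least 2-fold at the first step and 13 at the second. Of the 5367 dimmest the numbers were 20 and 23. The part of dim and flagged spots in the second step was not tested beyond these counts.

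Some IDs were spotted more than once, and their spots give a measure of technical error within an array. The 127 such IDs had 289 spots. The SD between spots of the same ID was 0.39 at 30% epiboly, 0.39 at 50% epiboly and 0.37 at shield on the log2 scale (162 degrees of freedom). For the difference between stages, the SD between spots of an ID was 0.31 at the first step, 0.26 at the second and 0.27 from 30% epiboly to shield. The SD of the same differences over all probes was 0.37, 0.30 and 0.32. The spread over all probes was thus only a little wider than the spread between spots of the same probe. Of the 289 spots taken singly, 5 passed 2-fold at the first step (1.73%), 2 at the second (0.692%) and 5 from 30% epiboly to shield (1.73%). These shares are no lower than those of all probes (1.45%, 0.323% and 0.981%), most of which were spotted only once. They rest on few spots and include spots of IDs whose mean differed 2-fold, so they do not measure error alone. A single spot could pass 2-fold where the other spot of its ID did not, as with 1.48 and 0.13 at the first step. The error between spots includes position on the slide but not the growth, pooling or amplification of the embryos' RNA. The ID with the most spots, 13, had a difference of -0.01 ± 0.27 at the first step and -0.17 ± 0.17 at the second (SD over spots).

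Of the 127 repeated IDs, 1 differed at least 2-fold at the first step, none at the second, and 2 from 30% epiboly to shield. All were higher at the later stage. The probe that differed at the first step had 2 spots in different print blocks. The ratios of its spot in the first of these were -2.81 at 30% epiboly, -1.35 at 50% epiboly and -1.35 at shield. Its other spot gave -3.07, -2.09 and -1.84. Both spots thus placed most of the difference at the first step, by 1.46 and 0.98. The other repeated ID was higher at shield than at 30% epiboly by 0.84 in 1 spot and 1.35 in its other spot. Its spots did not place that difference at the same step, since the first step gave 0.13 and 1.48.

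Whether differences continued was read from the second step of the 234 probes that passed 2-fold at the first. A second step in the same direction by at least 0.5 on the log2 scale was called continuing, an opposite one of that size a reversal, and a smaller one a hold. Of the 234 probes, 1 continued (0.427%, 95% Wilson interval 0.0755% to 2.38%), 155 held (66.2%, 59.96% to 72.0%) and 78 reversed (33.3%, 27.6% to 39.6%). For comparison, 12935 of all probes moved by less than 0.5 at both steps. A further 462 moved less than 0.5 at the first step and were higher by at least 0.5 at the second, and 399 were lower. A small second step was thus less frequent among the 234 probes than among probes with a small first step, so the share that held is no sign of particular stability. Among the 104 higher probes 28 reversed, and among the 130 lower probes 50 did. The median second step was -0.23 for the higher and 0.42 for the lower probes, so in both the median moved part of the way back. Looking back from the second step, 29 of its 52 probes had moved by at least 0.5 the other way at the first. Another 21 had moved less than 0.5 and 2 had moved the same way. Of all probes with a second step under 0.5, 12935 had also moved less than 0.5 at the first. Among those same probes, 865 had been higher and 901 lower at the first step by at least 0.5. The intervals cover counting error only, as if probes of the same arrays were independent, and hold no error between replicates. The 50% epiboly array enters both steps with opposite sign, so noise of that array alone appears as reversal, and a reversal cannot be told apart from it with 1 array.

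**Figure D2:**
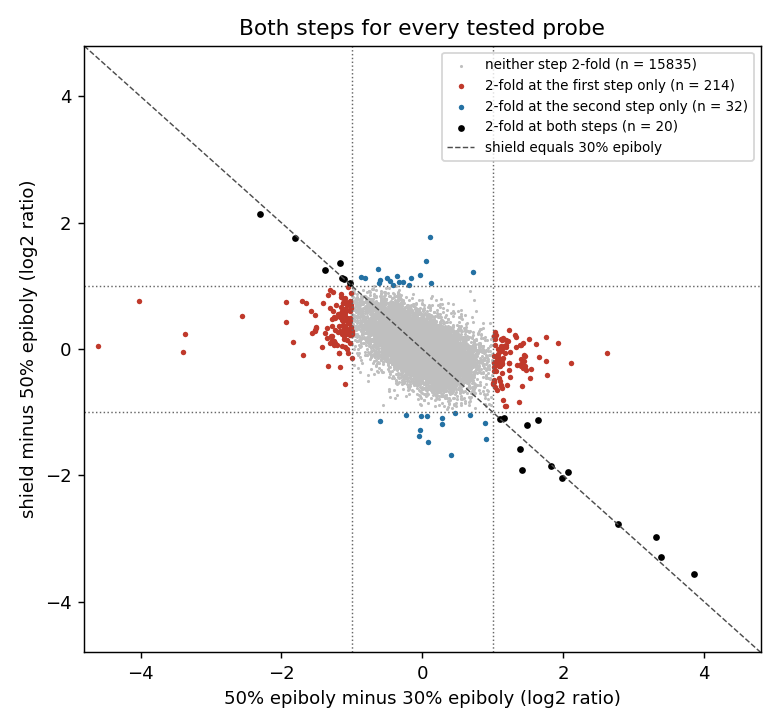
Difference at the first step (50% epiboly minus 30% epiboly, x axis) and at the second (shield minus 50% epiboly, y axis) for each of the 16101 probes, on the log2 scale. All 20 probes past 2-fold at both steps lie in the upper left or lower right corner, along the dashed line on which shield equals 30% epiboly, and none lies in the other corners.

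Over all probes, the steps had opposite signs in 69.6% and the same sign in 30.4%. Noise of the shared 50% epiboly array favours opposite signs here too, so this share cannot by itself be read as reversal of transcript levels. Equal noise on 3 arrays with no change makes opposite signs more frequent than the same sign, so an even split is not the reference. In the other runs of 3 neighbouring stages the same sign was found in 39.1% (64-cell, high and sphere) and 41.8% (75% epiboly, 90% epiboly and tailbud). Of all probes, 12935 moved by less than 0.5 at both steps, 11 were higher and 4 lower by at least 0.5 at both. A maximum at 50% epiboly by that size was found for 123 probes and a minimum for 401. These counts were not adjusted for print position, although the medians of print blocks also moved in opposite directions at the steps, as given below. The strictest form of reversal, at least 2-fold at both steps, was found for 20 probes, 13 with a maximum and 7 with a minimum at 50% epiboly. No probe was at least 2-fold at both steps in the same direction.

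The 13 probes with a 2-fold maximum at 50% epiboly had median ratios of -0.10 at 30% epiboly, 2.01 at 50% epiboly and 0.09 at shield. Their stage channel was 2.34 higher at the first step and their pool channel 0.01 higher. The values of 30% epiboly and shield were thus alike, and the 50% epiboly stage channel alone stood out. For 12 of the 13 a spot was flagged on at least 1 array. The 7 probes with a 2-fold minimum had medians of 0.02, -1.28 and 0.09. Here the median first step was -0.003 in the stage channel, while the pool channel was 1.30 higher at 50% epiboly than at 30% epiboly. For 5 of these 7 a spot was flagged, and stage signal exceeded the blank level on all 3 arrays for 1 of them.

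The 50% epiboly array, which does not enter the difference from 30% epiboly to shield, was then placed within that difference. The 30% epiboly array enters both that difference and the first step, so an error of that array alone puts the whole difference into the first step. Of the 158 probes with a 2-fold difference, 104 had their 50% epiboly value between the other two (65.8%, 95% Wilson interval 58.1% to 72.8%). The interval counts probes as if independent, which probes of the same 3 arrays are not, and holds no error between replicates. Among the 96 higher probes the first step held a median of 87.1% of the difference (quartiles 61.8% and 101%). Among the 62 lower probes it held 94.6% (quartiles 63.5% and 111%). The 50% epiboly value went beyond that of shield in 25 higher and 26 lower probes. It went the opposite way first in 1 higher and 2 lower probes. These shares describe the probes chosen, and a difference located at the first step cannot be told apart from an error of the 30% epiboly array with 1 array. In the other runs of 3 stages, 415 of 475 probes (64-cell to sphere) and 493 of 537 (75% epiboly to tailbud) had the middle stage between the ends.

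A linear trend over the 3 arrays was fitted, with 1 residual degree of freedom per probe. No probe passed an adjusted p of 0.05 in either direction (limma, two-sided, Benjamini-Hochberg adjustment over 16101 probes; 0 rising and 0 falling, 0% each). At an unadjusted p under 0.05 there were 654 of 16101 probes. That share is below 0.05, the share reached on average when no probe has a trend, so the count is no sign of trends. Under every alternative run the count was also 0, and the smallest adjusted p was 0.0701, with the ratios scaled to the same spread. On simulated data with exactly linear changes and independent noise, 14 of 50 probes given a 2-fold change over the 3 stages were called. Of 15901 simulated probes given no change, 14 were called too. Of those given a change of 2 on the log2 scale, 50 of 50 were called. On the arrays, the fitted change was 2.03 for CGENXEB_456002545_0 and -3.44 for CGENXEB_456015602_0, and neither was called. What share of probes with differences of that size the fit can find on these arrays was not tested. Since the error of the fit is the departure of 50% epiboly from a line, a probe whose whole difference fell at the first step counts against a trend.

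The other 6 arrays of the series were not used to choose these probes, and they give an independent reading of them. For each probe, the mean of 75% epiboly, 90% epiboly and tailbud was set against the mean of 64-cell, high and sphere. Of the 104 probes higher at the first step, 81 were at least 2-fold higher in the later arrays (77.9%), against 13.4% of all probes. In the opposite direction there were 3. Of the 130 lower probes, 94 were at least 2-fold lower in the later arrays (72.3%), against 12.1% of all probes, and 5 were higher. The shares of all probes, here and below, are not matched for brightness. Pool signal exceeded the blank level on all 3 arrays for 85.6% of the higher and 89.2% of the lower probes, against 70.6% of all probes. The probes of the first step thus mostly had the same direction across the series as between 30% and 50% epiboly.

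The probes of the second step did not show this. Of its 25 higher probes none was 2-fold higher in the later arrays and 6 were lower. Of its 27 lower probes 1 was 2-fold lower (3.70%) and 4 were higher (14.8%). Of all probes, 13.4% were 2-fold higher and 12.1% were 2-fold lower. Pool signal exceeded the blank level on all 3 arrays for 7 of the 25 higher and 17 of the 27 lower probes. By this measure both groups were dimmer than those of the first step. Whether dim signal kept their ratios from reaching 2-fold in the later arrays was not tested. For the difference from 30% epiboly to shield, 76 of 96 higher probes were 2-fold higher in the later arrays (79.2%), and 36 of 62 lower probes were lower (58.1%). Within the first step, probes that then held or continued were higher in the later arrays in 69 of 76 cases, and probes that then reversed in 12 of 28. A flagged spot was found for 16 of those 76 and for 18 of those 28. Among the lower probes this contrast was small, with 60 of 80 that held or continued and 34 of 50 that reversed lower in the later arrays. These shares are descriptions, and the differences between them were not tested.

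**Figure D3:**
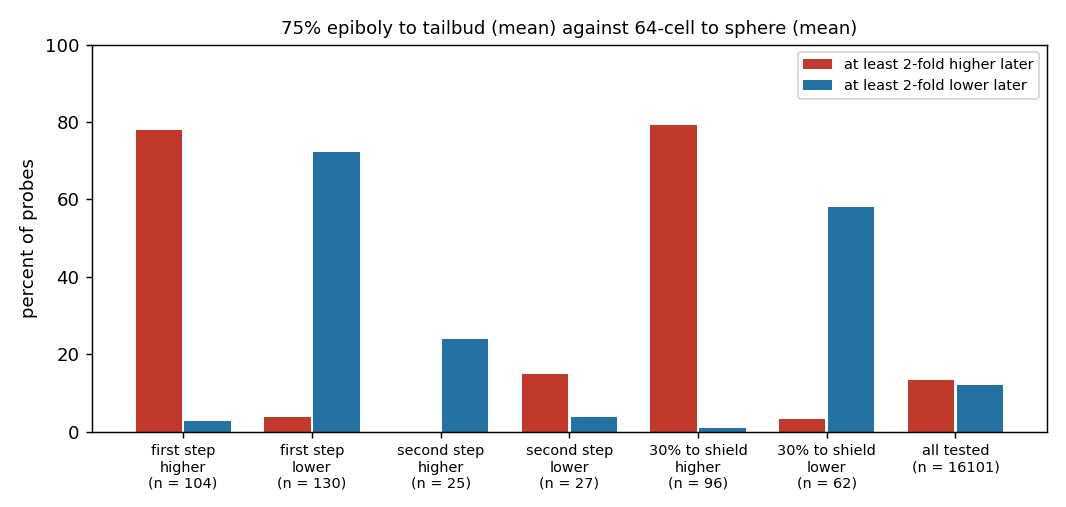
Percent of probes at least 2-fold higher (red) or lower (blue) in the mean of 75% epiboly, 90% epiboly and tailbud than in the mean of 64-cell, high and sphere, for each group of probes chosen on the arrays of 30% epiboly, 50% epiboly and shield, and for all 16101 probes. Groups of the first step reach 77.9% and 72.3% in their own direction, while those of the second step reach 0% and 3.70%.

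The course of the first-step probes over the whole series shows where this interval stands in it. The 104 higher probes had a median ratio of -2.32 at 64-cell, -2.05 at high and -1.98 at sphere. After shield they stood at 0.48 at 75% epiboly and 0.57 at tailbud. The 130 lower probes had 0.64 at 64-cell and 0.79 at sphere. Their medians after shield were -1.09 at 75% epiboly and -1.25 at tailbud. The step from shield to 75% epiboly uses neither array of the first step. There, 33 of the 104 higher probes were again at least 2-fold higher (31.7%, against 0.814% of all probes) and 1 was lower. Of the 130 lower probes 24 were again at least 2-fold lower (18.5%, against 1.46% of all probes) and 1 was higher. At 75% epiboly 81 of the 104 higher probes (77.9%) and 20 of the 130 lower probes (15.4%) lay above their shield value, against 7998 of all 16101 (49.7%).

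**Figure D4:**
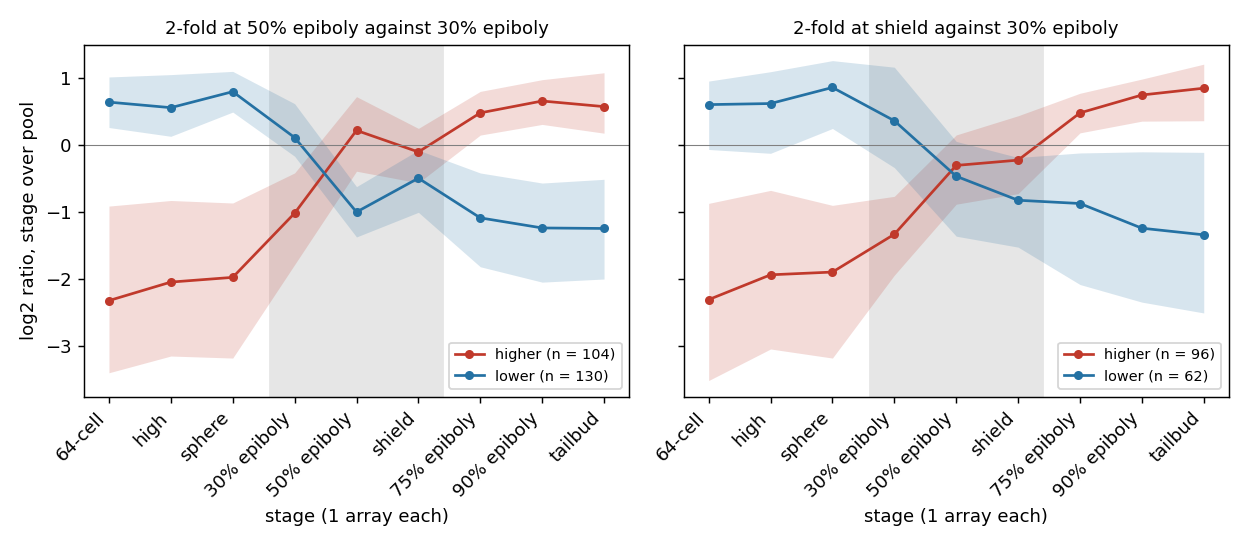
Median log2 ratio of stage over pool (line) with quartiles (band) at the 9 stages, for probes at least 2-fold higher (red) or lower (blue) at 50% epiboly than at 30% epiboly (left) and at shield than at 30% epiboly (right); grey marks the 3 arrays used to choose them. The medians of both groups cross within the grey span, where the probes were chosen for moving in opposite directions, which favours a crossing. They keep their order on the later arrays.

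Calls of the first step were not spread evenly over the slide. The arrays were printed in 32 blocks, and a block held between 0 and 23 probes past 2-fold at the first step. The 4 blocks with the most lower probes held 57 of the 130, and 6 of the 104 higher probes. These blocks, picked for their lower probes, held 2004 of all 16101 probes. The median first step of a block ranged from -0.38 to 0.24, and the median second step from -0.21 to 0.42. With loess fitted within print blocks the first step had 81 higher and 69 lower probes, of which 67 and 52 were shared with loess over the whole array. Of these 150 probes 34 reversed (22.7%) and none continued. Opposite signs of the steps were found for 64.4% of all probes under this setting. Of the 81 higher probes 61 were 2-fold higher in the later arrays, and of the 69 lower probes 44 were lower, shares of 75.3% and 63.8%. Differences from 30% epiboly to shield were affected less, with 90 higher and 60 lower probes, of which 80 and 53 were shared.

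Single probes were chosen by the largest difference from 30% epiboly to shield, with the 50% epiboly value between and a stage signal above blanks at the higher end. CGENXEB_456002545_0 had ratios of -2.97 at 30% epiboly, -1.04 at 50% epiboly and -0.95 at shield. It was 4.07-fold higher at shield than at 30% epiboly, and the first step held 95.2% of that difference. Its stage signal was 1374, 4280 and 2217.5 and its pool signal 11402, 10074 and 3830 on the 3 arrays. The channels normalized over the arrays differed by 1.88 in Cy5 and by -0.11 in Cy3 between shield and 30% epiboly. CGENXEB_456015335_0 followed the same course, with ratios of -1.91, -0.30 and -0.23, a 3.21-fold difference of which 95.5% stood at the first step. No spot of either probe was flagged, and the stage signal was at least 2.34 times the blank level on each array. In the trend fit their changes over the 3 stages were 2.03 ± 0.46 and 1.68 ± 0.41 (SE, limma, adjusted p = 1 for both). On the other arrays CGENXEB_456002545_0 stood at -4.68 at 64-cell and 1.14 at tailbud, and CGENXEB_456015335_0 at -3.48 and 1.45. The ratio of both was thus lowest before this interval and highest after it.

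The 2 probes with the largest negative difference under this rule each had a flagged spot at 30% epiboly. CGENXEB_456015602_0 had ratios of 3.92 at 30% epiboly, 0.52 at 50% epiboly and 0.48 at shield. The ratio of 30% epiboly stood alone, since on the 6 arrays outside this interval it lay between 0.28 and 0.80. Its spot was flagged at 30% epiboly, where the local background was 353, against 110 at 50% epiboly and 106 at shield. At 50% epiboly and shield its stage signal was below the blank level. CGENXEB_456007064_0 had ratios of 0.66, 0.06 and -1.07, and its spot was flagged at 30% and 50% epiboly but not at shield. The first step held 34.4% of its difference. The second step was -1.14, with 1.41 in the pool channel, and thus involved the unflagged shield spot. Its difference from 30% epiboly to shield was -0.18 in the stage channel and 1.502 in the pool channel, so it lay in the pool signal. On the other arrays this probe stood at -2.36 at 64-cell and -0.01 at tailbud. Its mean over the later 3 arrays was 2.11 above that of the earlier 3, the opposite direction to this interval. Neither passed the trend fit (changes of -3.44 ± 0.75 and -1.74 ± 0.29, SE, limma, adjusted p = 1 for both).

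The same rule was therefore also applied to probes with no flagged spot on the 3 arrays, a choice made after these values were seen. The same 2 probes came first among those higher at shield. Among unflagged probes that met the rule, the probe with the largest negative difference had ratios of -0.26, -1.60 and -1.87 in stage order. Its level was 3.05-fold lower at shield than at 30% epiboly. The stage signal of that probe was 5122, 1496 and 845.5, and its channels differed by -1.50 in Cy5 and 0.26 in Cy3. On the earlier arrays it stood at 0.94 (64-cell) and 1.12 (sphere), above the pool, and on the later ones at -2.16 (75% epiboly) and -2.96 (tailbud), far below it. The next probe had ratios of -0.44, -1.63 and -1.68, with 0.81 at 64-cell and -3.25 at tailbud. In both, the first step held most of the difference, 83.6% and 95.5%.

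**Figure D5:**
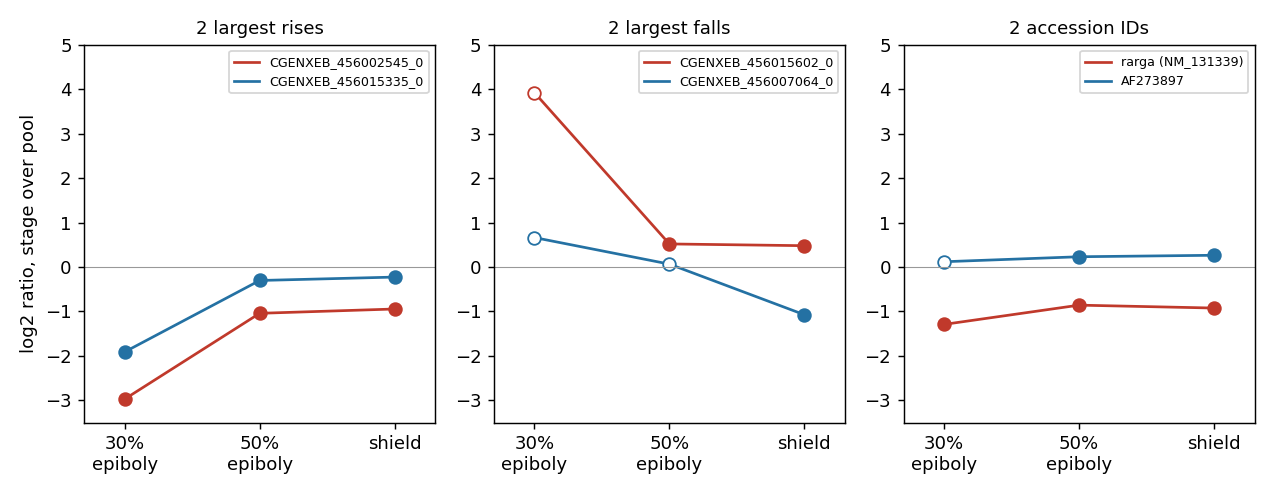
Log2 ratio of stage over pool at the 3 stages for the probes with the largest positive and negative difference from 30% epiboly to shield and for the 2 accession IDs, 1 array per point. Open circles are spots flagged by the image software, which mark the high 30% epiboly values of both probes in the middle panel.

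The array carried 2 probes named by an accession. NM_131339 is rarga, the gene of a retinoic acid receptor. Such receptors bind DNA together with retinoid X receptors and are switched by retinoic acid, a signal that patterns the gastrula along its head-to-tail axis. Its ratio was -1.29 at 30% epiboly, -0.86 at 50% epiboly and -0.92 at shield. The first step was 0.43 and the second -0.07, both under the 2-fold line, and the first exceeded the 0.31 SD between spots of an ID. The channels did not place it in the stage RNA, as the first step was -0.06 in Cy5 and -0.36 in Cy3. Its stage signal was 1.08, 1.11 and 0.785 times the blank level, so the probe was near the limit of detection at all 3 stages. The trend fit gave a change of 0.37 ± 0.28 (SE, limma, adjusted p = 1). The probe of AF273897, which the table of gene names does not hold, had ratios of 0.12, 0.23 and 0.26 and a stage signal below the blank level on all 3 arrays.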

How the data were processed

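The authors deposited scanner tables with the intensity of each spot and its local background per channel, not normalized and linear, per the file headers. The meaning of the software's flag codes is not stated there, and only the flag of the stage channel was used. The authors' value table, also deposited, holds log2 ratios of stage over pool by the authors. They equalled background-subtracted scanner ratios within 0.001 for 99.3% of IDs on each of the 3 arrays and are not centred (medians -0.80, -0.95 and -0.89 in stage order). No dye-swapped array was analysed here, so a probe's dye bias stays in its ratio.

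Spot means and background medians of 16896 spots per array were corrected with normexp (offset 50), and a loess curve per array, to which control spots gave no weight, was subtracted (limma 3.58.1, R 4.3.3). Ratios were averaged over spots of an ID. An ID was used when its spot median exceeded the background median by 2 background SD in a channel on at least 2 of the 3 arrays. The size rule was 2-fold. The trend was limma's slope on stage order, with moderated variance, checked on simulated data with independent noise. The blank level was the 95th percentile of 262 blank spots per array, taken in each channel. The brightest and dimmest probes were ranked by the mean log2 intensity of both channels. Named probes were the 2 largest differences each way under the rule in the text, and the 2 accession IDs, matched without version to RefSeq names (1 of 2 matched). Members, rules and lists were chosen with earlier results of these data known. Gene lists could not be applied without gene names. Alternatives covered background, normalization, filters, flags, size rule and the value table.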

Additional observations from a re-analysis of the deposited data

Results flagged for a closer look

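Control spots, which enter no comparison, were brighter in the stage channel than blank spots on all 3 arrays. The 172 spots of CGENZFCTRL_40001_0 had a median stage signal that was 14.9 times the blank level (its 95th percentile) or more. Their mean log2 ratio was -0.21 ± 0.45 at 30% epiboly, -0.39 ± 0.34 at 50% epiboly and -0.18 ± 0.31 at shield (SD over spots of 1 array). The mean of 50% epiboly thus lay below both others, with a first step of -0.18 ± 0.40 and a second of 0.21 ± 0.28. These SDs describe single spots and not the error of a mean over 172 spots, and the dip was not tested. The 31 pooled control spots had a lowest multiple of 24.6, and their ratios were -0.15, -0.06 and -0.13. For the 16 polyA spots it was 1.96. Their mean ratio was 0.58 ± 0.11, 0.40 ± 0.14 and 0.27 ± 0.13 in stage order. The labels do not say which RNA these spots bind.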

How the results depend on the processing

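No paired analysis was possible because each stage has 1 array, and leaving out a replicate was impossible for the same reason. The first step, the second step and the whole interval held 104, 25 and 96 higher and 130, 27 and 62 lower probes as reported. Without background correction they were 57, 8 and 51 higher and 68, 17 and 38 lower, 0% of first-step probes continued, and 55.1% of interval probes had 50% epiboly between. Median centring gave 42 and 42 at the second step and 43.1% reversals. Print-block loess gave 69 lower at the first step, 22.7% reversals and 0% continuing. The value table as deposited gave 336, 208 and 320 higher, 448, 132 and 205 lower, 53.6% reversals, and 71.2% of second-step probes opposite at the first step. With medians subtracted, a setting chosen after seeing the data, it gave 432, 148 and 405 higher, 254, 151 and 145 lower, and 50.7% reversals. A pool signal above blanks left 7 and 17 at the second step. Leaving out flagged spots left 7 and 3 there, 35 lower over the interval, and 0% continuing. At 1.5-fold there were 666, 543 and 580 higher, 924, 288 and 494 lower, and 25.8% reversals. The cause was not tested, except that a lower size rule and fewer probes change counts by construction. Of the other values, 80 stayed within 1.5 times or within their interval, the trend counts of 0 among them. No named probe changed the sign of its interval difference where that difference was at least 2-fold. Dim signal limits all 3 arrays: stage signal exceeded blanks for the fewest IDs at shield (6531), and pool signal for the fewest at 30% epiboly (11969).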

Other observations

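Stage signals were also set against the blank spots across the interval, which does not depend on the pool. Stage signal exceeded the blank level on all 3 arrays for 6440 probes and on none for 6435. Only 39 probes were above it at 50% epiboly and shield but not at 30% epiboly, and 448 were above it at 30% epiboly alone. The largest mixed groups were 1703 probes above it at 30% and 50% epiboly but not at shield, and 985 above it at 50% epiboly alone. The shield array had the lowest stage signal. The blank level in the stage channel was 515 at 30% epiboly, 385 at 50% epiboly and 408 at shield. Losses at shield by this measure move with array brightness, whose part was not tested.

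The ratios of 30% epiboly and shield resembled each other more (r = 0.75 over 16101 probes) than those of 30% and 50% epiboly (r = 0.70), and 50% epiboly and shield had r = 0.80. These are descriptions across probes, which are not independent and share a pool and dyes. The pool channel gave r = 0.98, 0.98 and 0.97 for 30% with 50% epiboly, 30% epiboly with shield and 50% epiboly with shield. That r is of the intensity of 1 channel and not of ratios, so it is no reference for the r of the ratios.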
